A study of Homo sapiens with 36 samples.

Results

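Jun binding was compared between 2 human lung cell lines by sorting every Jun peak into regions called in A549 only, regions called in B2B only and regions shared by both. A549 is a lung adenocarcinoma line, and B2B (BEAS-2B) is an immortalised, non-cancerous line from human bronchial epithelium. The peaks came from chromatin immunoprecipitation followed by sequencing (ChIP-seq), in which DNA crosslinked to a protein is pulled down with an antibody and read. Every Jun peak on the 22 autosomes, X and Y entered, 35602 in A549 and 45047 in B2B, out of 475211 peaks in the 16 lists of the series. Peaks that shared at least 1 bp were merged. This gave 63603 regions, of which 18692 were A549-only, 16682 shared and 28229 B2B-only.

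The series held 36 samples in 18 groups of 2 replicates, 4 of them input chromatin, and 4 of the samples were Jun immunoprecipitations made with the same antibody in the 2 lines. The labels list neither treatment nor genotype, and the groups differ by line and antibody. Both lines were grown in the same serum-containing medium, per the study's methods, and each stands for a cultured line, not for tissue. The authors merged the replicates before they called peaks. Each line therefore had 1 Jun list and no spread between replicates, and no test between the lines was possible. Shares are given with Wilson 95% intervals and their differences with Newcombe 95% intervals, which cover counting error only. A difference is called where its interval leaves out 0. Read totals per sample were not analysed here, so the depth behind each list is unknown, and a region without a peak in a line was not shown to be free of Jun there.

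Jun, encoded by JUN, is a leucine-zipper subunit of the transcription factor AP-1. It pairs with itself, with JunB and JunD, or with Fos and ATF family proteins, and the pairs bind the palindromic site TGACTCA, called the AP-1 motif below, or the related cyclic-AMP response element (CRE) TGACGTCA. In epithelial cells AP-1 acts downstream of growth factor, stress and cytokine signals, and most of its sites lie in enhancers away from gene starts.

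The printed windows show strong regions of each class that were chosen for holding the AP-1 motif. Many of the strongest A549-only and B2B-only regions lacked it, so the windows do not stand for those regions. The windows span 50 bp of the reference genome on either side of the summit, the base of highest signal, on the plus strand of build hg38. They were taken from the 3 regions of each class with the highest fold enrichment that held the AP-1 motif and met no annotated exon, and 2 of the 3 A549-only windows are shown. Fold enrichment is the deposited ratio of signal at the summit to the local background, and in shared regions the lower of the 2 values was used. Capitals mark TGACTCA or its reverse complement TGAGTCA. Each is named by the nearest protein-coding gene start.
A549-only, LVRN, chr5:115930377-115930477: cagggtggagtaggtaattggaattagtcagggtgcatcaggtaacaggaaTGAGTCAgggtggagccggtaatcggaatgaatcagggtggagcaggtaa
A549-only, SMIM10L2A, chrX:135389881-135389981: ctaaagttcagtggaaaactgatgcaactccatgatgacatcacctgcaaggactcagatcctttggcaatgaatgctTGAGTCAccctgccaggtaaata
shared, HPS1, chr10:98460952-98461052: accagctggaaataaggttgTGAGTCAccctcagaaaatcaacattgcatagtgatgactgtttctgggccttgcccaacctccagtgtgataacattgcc
shared, COMMD9, chr11:36149842-36149942: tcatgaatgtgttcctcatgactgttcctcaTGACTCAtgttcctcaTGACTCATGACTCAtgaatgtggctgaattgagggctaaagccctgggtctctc
shared, EIF2AK3, chr2:88600258-88600358: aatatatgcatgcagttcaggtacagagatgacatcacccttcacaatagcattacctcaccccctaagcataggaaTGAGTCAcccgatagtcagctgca
B2B-only, TNIK, chr3:171192358-171192458: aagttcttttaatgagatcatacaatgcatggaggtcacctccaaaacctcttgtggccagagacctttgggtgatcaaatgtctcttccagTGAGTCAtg
B2B-only, RIOK2, chr5:97838372-97838472: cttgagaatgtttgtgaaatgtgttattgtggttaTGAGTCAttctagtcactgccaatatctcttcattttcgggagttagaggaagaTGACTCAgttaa
B2B-only, CDKN2B, chr9:22103431-22103531: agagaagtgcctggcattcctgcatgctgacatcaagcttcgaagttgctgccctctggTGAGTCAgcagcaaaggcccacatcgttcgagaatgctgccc
Both A549-only windows were far above the median of their class, 7.74. Their fold enrichments were 80.8 and 77.7. The COMMD9 window, in an intron of LDLRAD3, held 3 copies of the motif and reached 68.9 in A549 and 69.8 in B2B. The HPS1 window lay in an intron of HPSE2 and reached 77.0 and 85.0. Among the B2B-only windows the values were 67.9, 61.9 and 58.9, and the RIOK2 window held 2 copies. The SMIM10L2A, EIF2AK3 and CDKN2B windows each also held TGACATCA, a word treated further on. Around the CDKN2B window the nearest A549 peak of any list lay 291 kb before and 50.5 kb after it. The number of DNA copies there was not analysed, and its part in this gap was not tested.

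Of the A549-only regions within 1 kb of an annotated transcript start, the 2 with the highest fold enrichment that lacked the motif and met no exon are shown for contrast.
A549-only, OR4E1, chr14:21917760-21917860: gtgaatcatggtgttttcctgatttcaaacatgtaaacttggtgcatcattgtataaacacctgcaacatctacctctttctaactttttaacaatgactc
A549-only, GALNT9, chr12:132286992-132287092: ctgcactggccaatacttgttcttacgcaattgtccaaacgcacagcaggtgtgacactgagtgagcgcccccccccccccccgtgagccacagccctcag
Their fold enrichments were 76.8 and 59.8. The start nearby was not that of the named protein-coding gene, which lay 244 kb and 29.3 kb away.

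Shared regions made up 26.2% of all merged regions (95% interval 25.9 to 26.6), A549-only regions 29.4% and B2B-only regions 44.4%. Shared regions were also stronger. Their median fold enrichment was 12.6 in A549 and 11.9 in B2B, against 7.74 in A549-only and 7.79 in B2B-only regions. Their median width was 378 bp, against 229 bp and 247 bp, but a shared region spans the merged peaks of both lines, which widens it by construction. The wider span also gives shared regions more room to overlap peaks of other lists in the shares below. With each list cut into 10 equal steps of fold enrichment, 26.1% of A549 peaks in the lowest step overlapped a B2B Jun peak and 81.4% in the highest. The B2B list went from 35.0% in its lowest step through 21.6% in the next to 71.0% in the highest. Sharing therefore rose with strength, except across the lowest B2B steps.

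**Figure D1:**
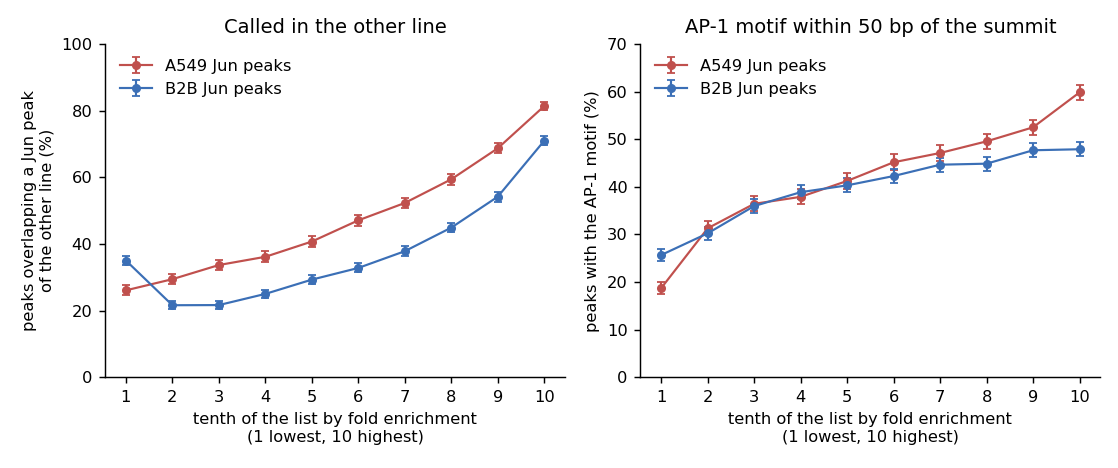
Left, share of Jun peaks (percent, y axis) that overlapped a Jun peak of the other line, by step of fold enrichment from 1, lowest, to 10, highest (x axis); right, share with TGACTCA within 50 bp of the summit. Points are A549 (red) and B2B (blue) peaks and bars are Wilson 95% intervals; both shares were highest in step 10, 81.4% and 71.0% on the left and 59.8% and 47.9% on the right.

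Within shared regions the summits of the 2 lines lay a median of 20 bp apart, and 84.9% lay within 50 bp of each other. The fold enrichments of the 2 lines were only loosely related (Spearman's rho 0.291 across 16682 regions of 2 lists, given as a description). In 6.52% of shared regions, 1087, the value was at least 4 times higher in A549, and in 2.93%, 488, at least 4 times higher in B2B. The A549-high group lay near starts far more often, with 47.8% within 1 kb against 10.0% in the B2B-high group. Its most uneven member sat 154 bp from a start of PPM1A, a protein phosphatase gene, with 52.6 in A549 and 2.59 in B2B. The regions nearest GZF1 (50.7 and 2.56) and YWHAH (61.1 and 3.12), a 14-3-3 protein gene, followed. On the B2B side the order was led by regions nearest C11orf87 (5.01 in A549 and 60.3 in B2B) and SDK1 (4.89 and 52.7), and the fifth lay nearest TNC, the gene of the matrix protein tenascin-C (5.11 and 51.1). JunB, the other Jun protein compared below, overlapped 94.8% of the A549-high regions in A549 and 68.0% of the B2B-high regions in B2B.

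The classes differed in where they lay. Of A549-only regions 32.3% (31.6 to 33.0) had the summit within 1 kb of an annotated transcript start, against 18.1% (17.5 to 18.7) of shared and 9.33% (9 to 9.68) of B2B-only regions. The A549-only share was 22.96 percentage points above the B2B-only share (22.2 to 23.7) and the shared share 14.2 points below the A549-only share (interval -15.1 to -13.3). The median distance to a start was 4.48 kb, 7.60 kb and 10.9 kb in the same order. B2B-only regions lay more often in introns, 58.3% against 40.1% of A549-only regions, and the shares between genes were closer, 28.7% and 24.5%. The share near starts fell with strength, from 44% to 23.1% between the lowest and highest of 4 equal steps of fold enrichment in A549-only regions. In B2B-only regions it went from 12.3% to 7.48%, and the A549-only share was the higher one at both ends.

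**Figure D2:**
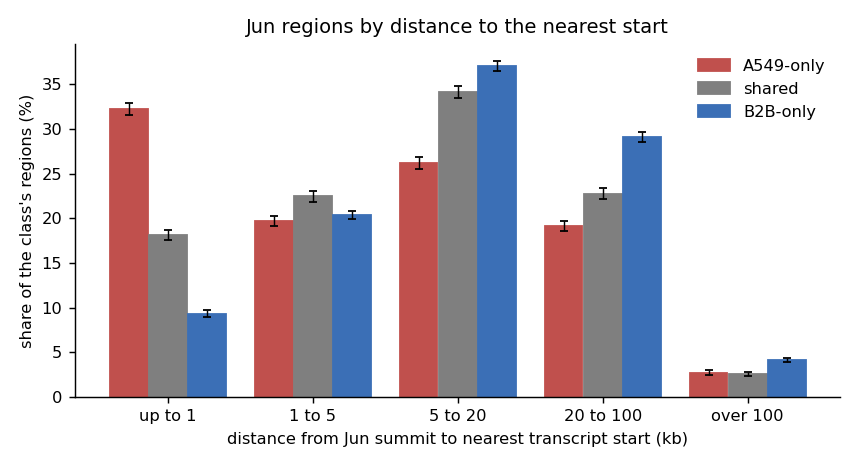
Share of the regions of each class (percent, y axis) by distance from the Jun summit to the nearest annotated transcript start (kb, x axis), with Wilson 95% intervals as bars. A549-only regions (red) led in the first class with 32.3%, while B2B-only regions (blue) were most frequent from 5 to 20 kb with 37.1%.

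A549-only regions lay more often in CpG-rich sequence. At least 5 CpG dinucleotides were found in 25.9% of A549-only windows of 50 bp to either side of the summit, in 8.33% of shared and in 2.18% of B2B-only windows. Mean GC content was 49.7%, 46.3% and 43.7%. The GC box GGGCGG, the site of Sp family factors, was found in 33.4% of A549-only windows within 1 kb of a start, in 12.8% of shared and in 3.11% of B2B-only windows there. In 35116 RefSeq promoters (hg38), 26.8% of windows of the same length held it. The ETS site CCGGAAG followed the same order (6.73%, 2.15% and 0.683%, with 3.34% of promoter windows), as did the E-box CACGTG (5.10%, 2.71% and 0.949%). The CRE was held by 4.52% of A549-only, 6.02% of shared and 0.873% of B2B-only windows near starts, and by 0.720% of promoter windows. The differences between A549-only and B2B-only windows were called for all 4 motifs, the widest being 30.3 points for the GC box (28.9 to 31.6). All motifs here and below were searched on both strands within 50 bp of the summit.

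The AP-1 motif was about as frequent in A549-only regions, 32.3% (31.6 to 33.0), as in B2B-only regions, 31.8% (31.3 to 32.3), a difference of 0.51 points whose interval held 0 (-0.35 to 1.37). Shared regions held it in 53.0% (52.2 to 53.7). In windows 2 kb to either side of the summits the share was 1.63% to 1.74%. The near-equality of the A549-only and B2B-only shares did not hold once regions were split by distance. Over 1 kb from starts the motif was in 40.2% of A549-only and 31.9% of B2B-only regions, 8.27 points apart (7.24 to 9.30). Within 1 kb it was in 15.8% and 30.7%, and the difference had the opposite sign (-14.9 points, -16.9 to -12.9). With both lists cut to the length of the shorter, the undivided difference was -1.21 points (-2.13 to -0.29). More than 1 copy was found in 5.65% of shared, 2.58% of A549-only and 0.893% of B2B-only regions, and the copy nearest the summit was a median of 14 to 16 bp away in the 3 classes.

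Regions without TGACTCA were searched for all words of 8 letters, ranked by how far their share exceeded that in the windows 2 kb away. This ranking and the words picked from it were chosen after the values were seen and carry no test. Over 1 kb from starts the leading words in all 3 classes resembled the AP-1 motif. ATGATTCA was held by 8.14% of such A549-only windows, 11.6% of shared and 5.82% of B2B-only windows, against 0.396%, 0.492% and 0.511% in the flanks. TGACATCA, which also stood in 3 of the printed windows, was held by 4.12%, 6.19% and 4.64% of the same windows. In B2B-only regions, words with the TEAD site ranked next (ACATTCCT, 4.59%, and ACATTCCA, 4.61%), and the RUNX word AAACCACA stood ninth with 4.17%. In A549-only regions the forkhead word TGTAAACA stood twelfth with 4.13%. Near starts the A549-only ranking was led by GC-box words such as CCCGCCCC (15.8%) and the shared ranking by the CRE TGACGTCA (10.5%). The AP-1 motif, the CRE, TGACATCA or one of the near matches TGATTCA and TGACTAA, which make 5 words in all, was held by 71.4% of shared, 48.8% of A549-only and 47.7% of B2B-only regions, with 4.38% to 4.99% in the flanks.

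Motifs of other factors separated the classes away from starts. Forkhead factors such as FOXA1 and FOXA2 open chromatin in endoderm-derived epithelium, and their site TGTTTAC was in 7.62% (7.17 to 8.10) of A549-only regions over 1 kb from starts. It was in 4.25% of shared and 1.74% of B2B-only regions, with 1.40% to 1.57% in the flanks. TEAD factors, the DNA-binding partners of YAP and TAZ, recognise GGAATGT, which was in 8.29% (7.96 to 8.64) of B2B-only, 5.61% of shared and 2.34% of A549-only regions. The RUNX site TGTGGTT was in 6.29%, 2.68% and 1.67% in the same order, and the A549-only value was close to that of its flanks, 1.88%. The A549-only minus B2B-only differences were 5.88 points for forkhead (5.40 to 6.38), -5.96 for TEAD (-6.38 to -5.52) and -4.61 for RUNX (-4.98 to -4.24). TEAD and RUNX sites were more frequent in B2B-only windows that lacked TGACTCA, 10.2% and 7.30%, than in those that held it, 4.14% and 4.13%. The forkhead site behaved alike in A549-only windows, with 8.88% and 5.76%. AGATAAG, the site of GATA factors, was in 1.98% of A549-only and 1.37% of B2B-only regions. Grainyhead (AACCGGTT) and C/EBP (TTGCGCAA) sites were in under 0.2% of each class.

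**Figure D3:**
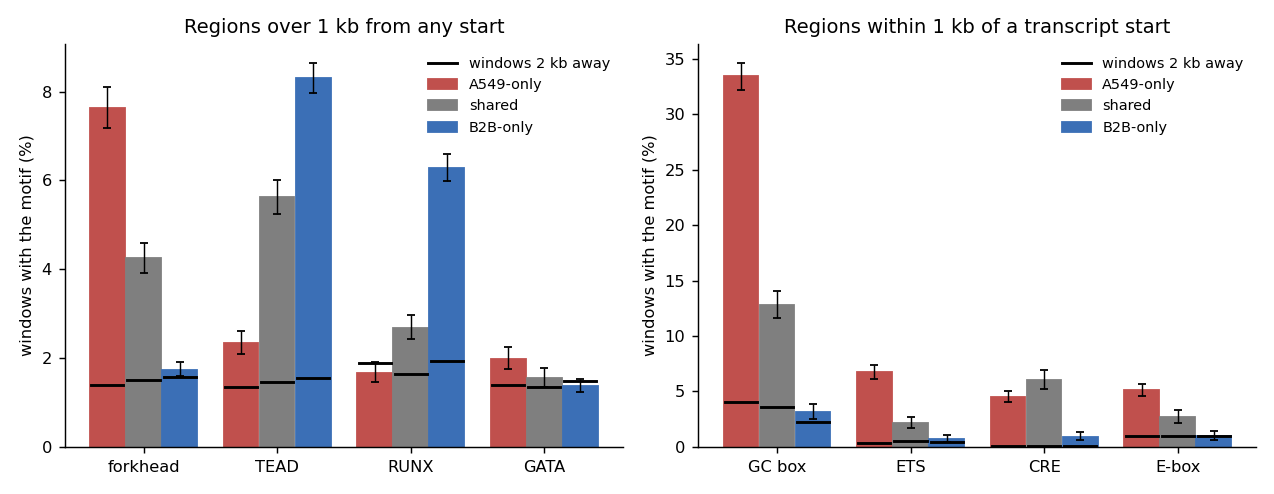
Share of summit windows (percent, y axis) that held each motif in A549-only (red), shared (grey) and B2B-only (blue) regions, away from starts (left) and near them (right), with Wilson 95% intervals. Black marks give the share in windows 2 kb away; forkhead reached 7.62% in A549-only, TEAD 8.29% and RUNX 6.29% in B2B-only, and the GC box 33.4% in A549-only regions.

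The antioxidant response element TGACNNNGC, the site of NRF2 with small Maf proteins, overlaps the AP-1 motif when it reads TGACTCAGC. In any form it was in 9.43% of A549-only, 10.0% of shared and 6.47% of B2B-only regions. Forms other than TGACTCAGC were in 6.92%, 5.71% and 4.34%, with 2.94% to 3.03% in the flanks.

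The very strongest B2B-only regions held few AP-1 motifs. Of the 50 with the highest fold enrichment 5 held TGACTCA, against 23 of the 50 strongest A549-only and 37 of the 50 strongest shared regions. With the 4 related words counted too, the numbers were 11, 36 and 43. Of the same 50 B2B-only regions 11 held the TEAD and 11 the RUNX site, and none the forkhead site, which 11 of the 50 A549-only regions held. In 41 of the 50 a B2B CTCF peak overlapped, in 25 a B2B Rad21 peak, in 42 a B2B JunB peak and in 47 a B2B JunD peak. The 50 strongest shared regions had these overlaps as well, in 47, 12, 48 and 48. CTCF is the insulator protein and Rad21 a cohesin subunit. None of the 5 strongest B2B-only regions held TGACTCA. Among them were the regions nearest PIK3C3, SH3TC2, DACT1 and HHAT, with values of 87.3, 74.9, 72.5 and 71.6, and all 5 overlapped B2B CTCF, JunB and JunD peaks and no A549 peak of Jun, JunB or JunD. The 5 strongest shared regions likewise all overlapped B2B CTCF, JunB and JunD, and all 5 held TGACTCA. The numbers 5, 50 and 500 of strongest regions were chosen after the values were seen, and among the 500 strongest the motif counts were 134, 255 and 316. The low share did not reach through the stronger B2B-only regions at large, since the highest of 4 equal steps of fold enrichment held the motif in 34.1% and the lowest in 24.8%.

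CTCF and Rad21 were available here for B2B only, and those of A549 were not analysed here. On chromosomes 1 to 12 a B2B CTCF peak overlapped 41.6% of shared, 28.0% of B2B-only and 12.2% of A549-only Jun regions, so that shared exceeded B2B-only by 13.6 points (12.5 to 14.6). Rad21 ran in another order, with 22.3% of A549-only, 15.5% of shared and 6.09% of B2B-only regions. The A549-only value came mostly from starts, with 63.9% within 1 kb and 4.44% beyond.

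JunB and JunD, which share the DNA-binding domain and dimer partners of Jun, joined Jun unequally in the lines. In A549, JunB peaks overlapped 46.3% (45.6 to 47) of A549-only regions, and in B2B they overlapped 8.56% (8.23 to 8.89) of B2B-only regions. The difference was 37.8 points (37.0 to 38.6). For JunD the shares were 16.5% and 6.36%, 10.1 points apart (9.53 to 10.7). The A549 JunB list was longer, with 28068 peaks against 8563, while the JunD lists had 9639 and 8597. List length moved with the JunB result, and its part in it was not tested. In shared regions JunB overlapped 70.2% in A549 and 31.0% in B2B, and JunD 26% and 25.9%. Almost no A549-only region had JunB (14 of 18692) or JunD (52) in B2B. Conversely, 4.89% of B2B-only regions had a JunB peak in A549 and 0.184% a JunD peak. The AP-1 motif went with JunB. It was in 40.7% of A549-only regions with JunB and 25.1% without, 15.6 points apart (14.3 to 17.0), and in 52.6% and 29.8% of B2B-only regions, 22.8 points apart (20.7 to 24.8). Both also rose with Jun strength from the lowest to the highest of 4 equal steps of fold enrichment. In A549-only regions JunB went from 31.0% to 72.8% and the motif from 19.6% to 41.9%. In B2B-only regions JunB went from 1.30% to 27.3% and the motif from 24.8% to 34.1%. The part of strength was not tested. Among the 50 strongest B2B-only regions 42 had JunB and 5 the motif.

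Marks of active genes and enhancers were compared on chromosomes 1 to 12, since the A549 lists of H3K27ac, Med1 and RNA polymerase II (pol II) and the B2B list of Med1 hold no peaks on some later chromosomes. H3K27ac marks active promoters and enhancers, H3K4me3 active starts, and Med1 is a Mediator subunit found at strong enhancers. In its own line H3K27ac overlapped 32.7% of A549-only and 7.91% of B2B-only regions, 24.7 points apart (23.9 to 25.6). Med1 overlapped 32% and 9.09%, pol II 43.8% and 13%, and H3K4me3 34.8% and 4.81%. Much of each gap came from starts. Over 1 kb from starts H3K27ac overlapped 12% of A549-only and 6.92% of B2B-only regions, Med1 13.6% and 8.27%, pol II 25.9% and 11.9%, and H3K4me3 13.7% and 3.56%. The differences away from starts all kept their sign, and that for H3K27ac was 5.07 points. Over the chromosomes each list holds, A549 lists were longer for pol II (45938 peaks on 20 chromosomes against 25234 on 24) and H3K4me3 (32801 against 26112, both on 24). The H3K27ac lists had 28550 peaks on 13 chromosomes in A549 and 40316 on 24 in B2B, so their totals do not compare like spans. The Med1 lists had 20026 and 20605, both on 15 chromosomes. List lengths on chromosomes 1 to 12 are not given here. Median H3K4me3 peak width was 863 bp against 632 bp in B2B. What list length and peak width contributed to the mark differences was not tested.

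Distal marks followed the line that had the Jun peak. At A549-only regions over 1 kb from starts H3K27ac was found in 12% in A549 and 3.31% in B2B, 8.67 points apart (7.91 to 9.45), and pol II in 25.9% and 2.02%. At B2B-only regions H3K27ac was found in 6.92% in B2B and 1.63% in A549, 5.29 points apart (4.89 to 5.70), and pol II in 11.9% and 2.90%. Shared distal regions carried H3K27ac in 18.2% in A549 and 15.0% in B2B. Their H3K27ac share in A549 was thus above that of A549-only regions by 6.24 points (5.23 to 7.26), whereas with starts included it was 7.87 points below (interval -8.99 to -6.74). None of the 4 marks was found at 68.3% of distal A549-only regions in A549, at 81.5% of distal B2B-only regions in B2B, and at 58.0% and 67.3% of distal shared regions in the respective lines. Of distal A549-only regions with H3K27ac in A549, 34.3% held TGACTCA, against 40.8% of those without.

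Starts behaved otherwise. At A549-only regions within 1 kb of a start the marks were frequent in both lines. H3K27ac was found in 81.0% in A549 and 67.7% in B2B, Med1 in 74.9% and 68.8%, pol II in 85.8% and 59.4%, and H3K4me3 in 84.1% and 53.9%. At B2B-only regions near starts these marks stayed under 25% in B2B, with pol II highest at 24.4%. The starts themselves differed in kind between the classes. A protein-coding start lay within 1 kb of 24.96% of A549-only and 3.22% of B2B-only regions, against 32.3% and 9.33% for any annotated start. The mark contrasts here and the motif contrasts near starts above therefore do not compare like promoters. The part of the kind of start in them was not tested.

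**Figure D4:**
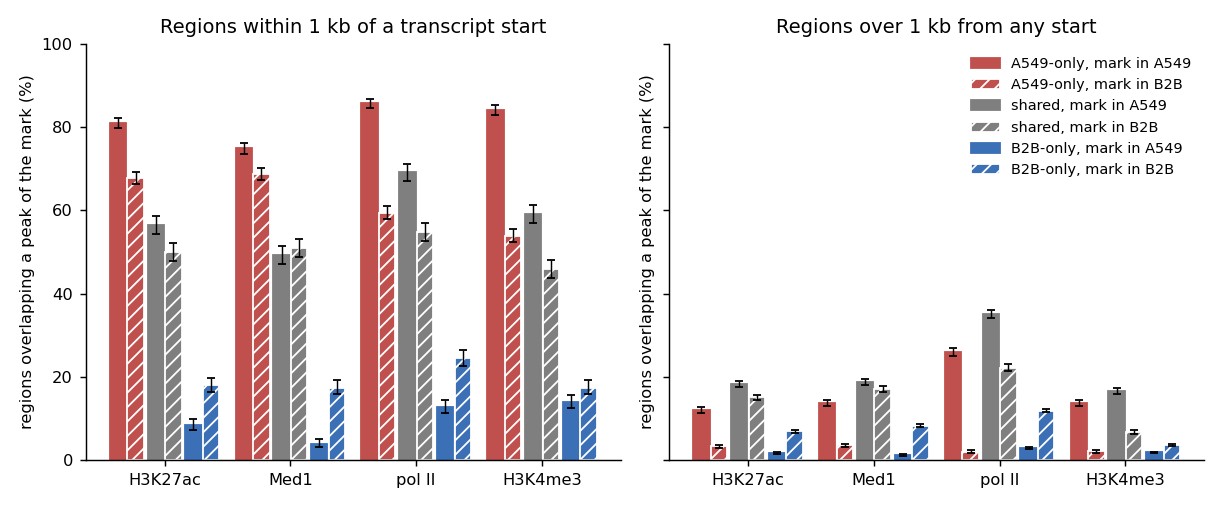
Share of Jun regions on chromosomes 1 to 12 (percent, y axis) that overlapped a peak of each mark, near starts (left) and away from them (right), for A549-only (red), shared (grey) and B2B-only (blue) regions; plain bars are the mark in A549, hatched bars in B2B, and error bars Wilson 95% intervals. Near starts A549-only regions carried H3K27ac in both lines (81.0% and 67.7%), and away from starts mainly in A549 (12% and 3.31%).

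Counted by gene, promoters with a Jun peak in A549 only again carried the marks in both lines. A promoter here is the stretch within 1 kb of any start of a protein-coding transcript. A mark counts anywhere in that stretch, whereas in the region counts above it had to overlap the Jun region itself. The gene shares are therefore not comparable with the region shares. Of 20007 protein-coding genes 3983 had a promoter Jun peak in A549 only, which is 19.9%, 1856 in both lines (9.28%) and 582 in B2B only (2.91%). On chromosomes 1 to 12, 2506 genes had the A549-only promoter peak, and their promoters carried H3K4me3 in 97.7% in A549 and 91.6% in B2B. Pol II was found at 97.4% and 81.2% of them. Among genes with no promoter Jun peak in either line H3K4me3 was found at 59.8% in A549 and 46.2% in B2B. JunB was found at 63.2% of the 2506 promoters in A549 and at none in B2B, where a count of 0 of 2506 allows a share of up to 0.153% by the Wilson interval. The 399 genes with a promoter peak in B2B only carried H3K4me3 at 73.7% in B2B and 67.4% in A549, and pol II at 62.9% and 60.2%.

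By the fixed rule for names, the promoter peaks of highest fold enrichment at genes with one in A549 only were at FBXO31 (66.0), an F-box subunit of a ubiquitin ligase, GPAT3 (61.3), an acyltransferase of lipid synthesis, SESN2 (55.0), the stress gene sestrin 2, CEBPG (53.5), a leucine-zipper factor, and ZNF362 (51.3). All 5 overlapped A549 JunB and JunD and carried H3K4me3 in both lines, and TGACTCA was found only at GPAT3. The FBXO31 peak, with its summit 1166 bp from a start, belonged to a shared region whose B2B peak lay beyond 1 kb. At genes with one in B2B only they were at HHAT (71.6), the acyltransferase of Hedgehog proteins, NNMT (40.5), nicotinamide N-methyltransferase, DOCK9 (36.0), MCC (35.1) and PRR5L (35.0). The NNMT peak likewise met an A549 peak beyond 1 kb, which held for promoter peaks of 22 of the 3983 and 8 of the 582 genes. All 5 had H3K4me3 and pol II at the promoter in both lines. MCC and PRR5L held the motif.

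For gene counts each region was given to the protein-coding gene with the nearest transcript start, at most 100 kb away, which placed 80.2% of A549-only, 80.5% of shared and 72.5% of B2B-only regions. At least 1 A549-only region was given to 41% of genes, at least 1 shared region to 33.6% and at least 1 B2B-only region to 38.2%. At least 3 A549-only and no B2B-only regions were given to 2.75% of genes, and the reverse to 4.79%. Nearness does not show that a region acts on a gene. The counts for lists are read against these values without a test.

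Genes induced by NRF2, the regulator of the antioxidant response, leaned to A549. Of the 21 genes of the list 12 had a promoter Jun peak in A549 only (57.1%, against 19.9% of all genes). Such a peak was in both lines at 6 (28.6%, against 9.28%) and in B2B only at 0 (against 2.91%). At least 1 A549-only region lay nearest 18 of the genes (85.7%, against 41%). At least 1 B2B-only region lay nearest 11 (52.4%, against 38.2%). The whole list had 61 A549-only, 35 shared and 28 B2B-only regions. At least 3 A549-only and no B2B-only regions were given to 6 of the genes (28.6%, against 2.75%). PGD, an enzyme of the pentose phosphate pathway, had 7 A549-only regions and no other. The efflux pump gene ABCC2 had 6 A549-only and 3 shared regions, and the aldo-keto reductase gene AKR1B10 had 4 A549-only regions. TXNRD1, thioredoxin reductase 1, had 10, 5 and 4. SLC7A11, the cystine transporter gene, ran the other way with 3, 3 and 8.

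Mesenchymal genes leaned to B2B. All 20 genes of the list had at least 1 B2B-only region nearest to them (100%, against 38.2% of all genes). An A549-only region lay nearest 9 of them (45%, near the 41% of all genes). The regions numbered 18 A549-only, 27 shared and 77 B2B-only, and the B2B-only share was 63.1%, against 41.9% over all genes. CDH2, N-cadherin, had 1 A549-only and 10 B2B-only regions. COL5A1, a fibrillar collagen gene, had 1, 2 and 9, and FN1, fibronectin, had 0, 1 and 7. ZEB1, a repressor of epithelial genes, was the exception with 4, 1 and 1. VIM had 2 of each. With every gene within 50 kb counted in place of the nearest, 19 of the 20 genes had a B2B-only and 7 an A549-only region. The shares over all genes in that setting are not given here.

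Epithelial adhesion and keratin genes leaned to A549, with 34 A549-only, 28 shared and 7 B2B-only regions for 16 genes. EPCAM had 6, 4 and 1 of them, CDH1, E-cadherin, 5, 1 and 1, and KRT8 5, 6 and 0. Lung and endoderm regulators had 39, 34 and 16 for 17 genes. Of these genes 8 had a promoter Jun peak in A549 only (47.1%, against 19.9% of all genes) and 0 in both lines (against 9.28%). In B2B only it was at 2, ELF3 and EHF (11.8%, against 2.91%). An A549-only region lay nearest 13 of the 17 (76.5%, against 41%) and a B2B-only region nearest 9 (52.9%, against 38.2%). FOXA2 had 6 A549-only regions and no other, and CEBPA 3. The ETS factor genes ELF3 and EHF differed, with 6, 4 and 1 and with 0, 6 and 4. NKX2-1, the lung lineage factor, had none in any class.

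YAP-TEAD genes, the textbook targets and partners of the Hippo pathway, held 24 A549-only, 60 shared and 81 B2B-only regions for 14 genes. Each of the 14 had a shared region (100%, against 33.6% of all genes). CRIM1 had 4, 16 and 19 and TEAD1 3, 8 and 16. TGF-beta genes held 31, 53 and 59. The B2B-only share of regions was 49.1% for the YAP-TEAD and 41.3% for the TGF-beta list, against 41.9% over all genes. The receptor gene TGFBR1 had 9 B2B-only regions and no other, SMAD3 had 8, 19 and 12, and SKIL, a repressor of SMAD signalling, had 5, 1 and 0. Integrin and laminin genes held 41, 57 and 54, with 35.5% B2B-only, where ITGB1 (8, 8 and 1) and LAMA3 (1, 4 and 12) stood at opposite ends.

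Regions nearest growth factor genes were split much like those of all genes, 30.7% A549-only, 27.5% shared and 41.9% B2B-only. The EGF receptor, ligand and feedback list of 19 genes held 60, 65 and 72 regions (30.5%, 33.0% and 36.5%). Of its genes 17 had a B2B-only region (89.5%, against 38.2% of all genes) and 16 an A549-only region (84.2%, against 41%). Its promoters were further from all genes. A promoter Jun peak was in A549 only at 8 of the 19 (42.1%, against 19.9%) and in both lines at 7 (36.8%, against 9.28%). In B2B only it was at 1 (5.26%, against 2.91%). The ligand gene AREG had 8, 2 and 2 and the phosphatase gene DUSP5 10, 6 and 6, while EGFR had 4, 13 and 14. The 17 AP-1 genes held 26, 30 and 26. JUN itself had 2, 5 and 5 with a promoter peak in both lines, FOSL2 had 1, 2 and 8, and FOS 5, 3 and 3. Cytokine genes held 15, 28 and 35. At least 3 B2B-only and no A549-only regions were given to 5 of the 18 (27.8%, against 4.79% of all genes). Among them IL1B had 5 B2B-only regions and no other, and IL6 0, 1 and 4. PTGS2, cyclooxygenase 2, had 7 A549-only regions and no other. Protease genes held 11, 28 and 21.

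The remaining lists served as background. Basal airway genes held 5, 11 and 14 regions for 14 genes, secretory genes 12, 8 and 12 for 15, and blood cell genes 2, 2 and 5 for 10. Of 87 ribosomal protein genes 29 had a promoter peak in A549 only (33.3%), 14 in both (16.1%) and 1 in B2B only (1.15%). The shares over all genes were 19.9%, 9.28% and 2.91%. Olfactory receptor genes, which neither line should use, held 81, 34 and 52 regions for 415 genes. Their A549-only share of 48.5% was close to those of the NRF2 (49.2%) and epithelial (49.3%) lists, so such a share is not particular to those lists.

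**Figure D5:**
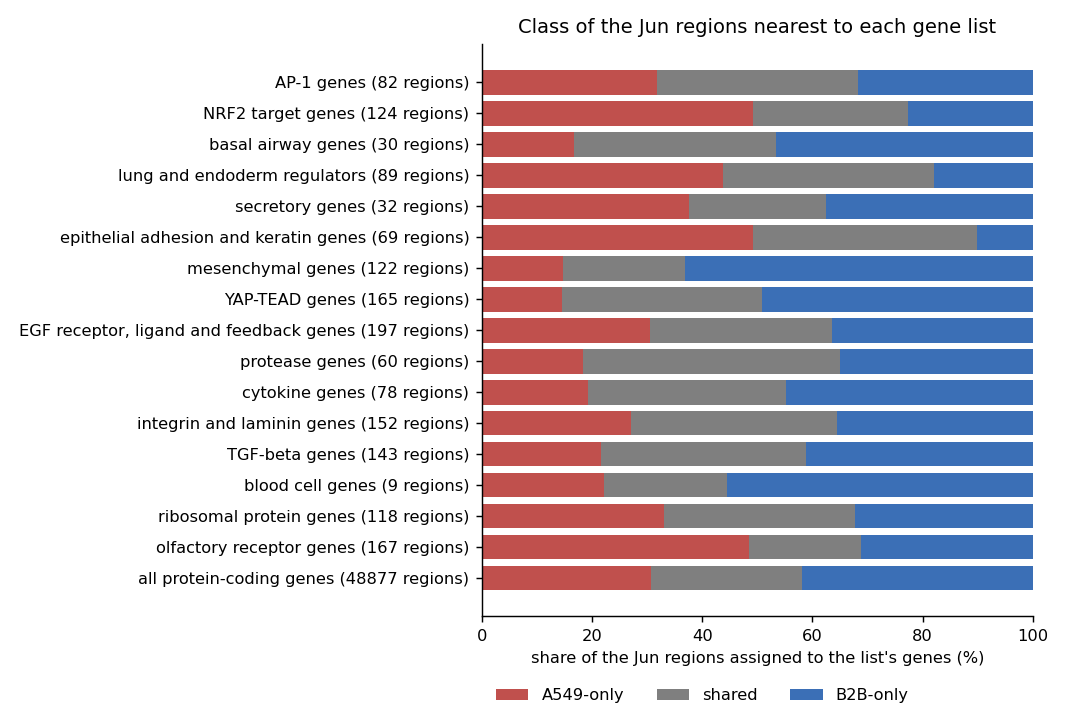
Share of Jun regions (percent, x axis) of each class among those nearest to the genes of each list (y axis, number of regions in brackets), with all protein-coding genes in the lowest bar. Over all genes 30.7% were A549-only and 41.9% B2B-only; the A549-only share was 49.2% for NRF2 targets, 49.3% for epithelial genes and 48.5% for olfactory receptor genes, and the B2B-only share 63.1% for mesenchymal genes.

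The genes given the most regions ranged from 10.7 kb to 1553 kb in length. PDE4D, a cyclic-AMP phosphodiesterase gene of 1553 kb on chromosome 5, led both the A549-only (46) and the shared order (24) and had 9 B2B-only regions. ALDH1A1, the retinaldehyde dehydrogenase gene of 180 kb on chromosome 9, had 20, 3 and 1, and its promoter carried H3K4me3 and pol II in A549 and neither in B2B. CSGALNACT1 and BMPR1B, a BMP receptor gene, showed the same promoter pattern with 15, 2 and 0 and 13, 3 and 2 regions. ANK3 (15, 6 and 8), LTBP1 (14, 7 and 3) and ASPH (14, 8 and 2) also ranked here, but their promoters carried H3K4me3 in both lines. Pol II was at these promoters in A549, and in B2B at that of ASPH only. On the B2B side FRMD4A had 2, 5 and 32, the actin-binding gene PALLD 4, 13 and 29, CDC42EP3, a CDC42 effector gene, 1, 5 and 29, ARHGAP26 7, 12 and 28, SRGAP2 1, 2 and 27, and NREP 0, 4 and 25. DST, the gene of the cytoskeletal linker dystonin, was in both orders with 10, 21 and 27. MAST4, FOXP1 and PALM2AKAP2 had 25, 25 and 24 B2B-only regions. All 10 of these promoters carried H3K4me3 in both lines. SMAD3, PHLDB2 and IGF1R had 19, 17 and 16 shared regions.

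The other 3 names on the A549-only side, CCDC200 (18, 10 and 1), FCGR2A (16, 0 and 0) and IZUMO2 (14, 0 and 0), had weaker peaks, with a highest fold enrichment of 11.1, 13.6 and 10.5, and no H3K4me3 at the promoter in either line. The FCGR2A regions were part of a run of 22 successive A549-only regions on chromosome 1 (161398138 to 161531160), where the other A549 lists had 99 peaks and the other B2B lists 64. The longest run had 48 A549-only regions on chromosome 21 (8205085 to 8663069), with a median fold enrichment of 5.66, 51 A549 JunB peaks and 11 B2B CTCF peaks. Such runs of weak peaks were found in the other lists of A549 too, and the part of repeated sequence in them was not tested.

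Some runs had few peaks of any list in the other line. A run of 34 A549-only regions around AUTS2 on chromosome 7 (67604867 to 71633916) met 72 peaks of the other A549 lists and 1 of the other B2B lists. A run of 22 around PDE3A and SLCO1B3 on chromosome 12 met 73 and 15. On the B2B side, 43 successive regions around NCAM2 on chromosome 21 (17854914 to 25462058) met 3 A549 peaks of any list and 108 of the other B2B lists. Runs of 40 around FLRT2 on chromosome 14 and 36 around GRAMD2B on chromosome 5 met 4 and 6 A549 peaks. The A549 H3K27ac list holds no peaks on chromosomes 14 and 21, and its Med1 and pol II lists none on 21, which lowers those A549 counts. Across chromosomes the ratio of A549-only to B2B-only regions was highest on 19 (1.86) and 16 (1.35) and lowest on 13 (0.327). The number of DNA copies in each line was not analysed here, and its part in these counts was not tested.

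The labelled cell types were checked by H3K4me3 and pol II at defining genes. KRT8, KRT18 and EPCAM had both marks in both lines, as did VIM, CDH2 and COL1A1. KRT7, CDH1 and NKX2-1 had H3K4me3 in both lines and pol II in A549 only. KRT19, another epithelial keratin gene, had neither mark in either line. The alveolar genes SFTPB, SFTPC and NAPSA and the basal genes KRT5 and KRT14 had neither as well. TP63, a basal cell factor, had both in A549 only. The blood genes PTPRC and CD3E had neither.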

How the data were processed

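The 4 Jun samples and the other immunoprecipitations were read as 16 peak lists. Per the study's methods and the submitters' processing notes, the authors aligned reads to hg38 with Bowtie2 2.4.4, removed duplicates with their own code, merged the 2 replicates, scaled coverage with SAMtools 1.13 and called peaks with MACS2 2.2.7.1. The caller's options and control are not given in the sources used here. Merging leaves no replicate spread, and a deeper library gives more peaks. The deposited lists hold the authors' score (10 times −log10 q, rounded down), the ratio called fold enrichment at the summit, the −log10 p and the summit offset. The lowest score in both Jun lists was 20.

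Peaks were merged where they shared 1 bp. The position was the summit of the strongest peak (the A549 peak in shared regions). Distances, exons and introns came from GENCODE 44 on hg38, promoters for motif background from RefSeq. Motifs were searched within 50 bp of the summit. Shares have Wilson and differences Newcombe 95% intervals, for counting error only. Python 3.11.15, pandas 2.3.3, SciPy 1.17.1 and pysam 0.24.0 were used, and the scripts were tested on simulated data.

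Named were the list genes, the 10 genes with most A549-only and most B2B-only regions (5 for shared), the 5 strongest regions of each class, and the 5 strongest one-line promoter peaks. Members and lists were chosen with earlier results of these data known. Alternatives changed the motif window, start distance and annotation, overlap, peaks kept, list length, chromosomes, summit of shared regions, gene assignment, and strength or distance of the regions. Sequences on some chromosomes were not printed, and a few named items are not reported here.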

Additional observations from a re-analysis of the deposited data

Results flagged for a closer look

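Jun peaks also lay on sequences of the assembly other than the 22 autosomes, X and Y, which entered no comparison. A549 had 265 such Jun peaks on 42 sequences, with a median fold enrichment of 4.56 and a highest of 42.6. B2B had 103 on 24 sequences, with a median of 3.36 and a highest of 21.7. Both counts were above the limit of 3 that a count of 0 allows, and no control list was analysed here.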

How the results depend on the processing

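Of 135 alternative values for 15 results, 127 kept their direction and their call or stayed within the counting interval. With an overlap of 50% of each peak, shared regions that failed it were left out and not reclassified. That setting could not alter an A549-only minus B2B-only result, and those unchanged values are among the 127. The shared share of regions moved from 26.2% to 26.7% with peaks of −log10 q of at least 5, and to 27% with lists of equal length. With an overlap of 50% of each peak it was 22.3% of the 60400 regions left. The A549-only minus B2B-only difference in the AP-1 motif, 0.51 points, became -1.21 with lists of equal length, 7.84 in the strongest regions of each class (the highest of 4 equal steps) and 8.27 over 1 kb from starts. The shared minus A549-only difference in H3K27ac in A549, -7.87 points, became 0.68 (-1.47 to 2.84) in the strongest regions and 6.24 over 1 kb from starts. The cause was not tested, beyond the change of regions compared. JunB kept a difference between the lines of 33.6 to 45.4 points, JunD of 3.17 to 11.6 and H3K27ac of 5.07 to 25.3. With all genes within 50 kb counted in place of the nearest, 17 of 51 list counts moved by over 1.5 times. No paired analysis was possible because the lists are pooled over replicates, so no replicate could be left out either. Depth per list is unknown and limits what an absent peak means.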
